A study of Rattus norvegicus with 12 samples.

Results

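Expression of 9 genes was followed across diseased and undiseased rat kidneys, namely Kap, LOC361914, Akr1c12l1, Rgn, Dhrs7l1, Cacng5, Gucy1b2, Nat8f1 and Ppp1r1a. They were picked because their expression was very far lower in diseased than in undiseased kidneys of the same tables, so the size of their fall is the reason for their choice and is given below as a description, without a test. Each of the 9 symbols had 1 entry in both tables of FPKM (fragments scaled by transcript length and library size), among 22132 entries in the table of the adenine model and 32623 in the table of the UUO model. All 9 were above the filter on low values (a minimum FPKM of 0.5, reached by 3 or more of the 6 samples of a table), which left 15029 and 15043 entries. LOC361914, Cacng5 and Gucy1b2 were above that minimum only in the undiseased kidneys.

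The kidneys came from male SD rats bought at 8 weeks of age, 3 per group and a different animal for each library. Adenine rats were gavaged daily over 3 weeks with 220 mg/kg of adenine, and control rats with saline. In the UUO (unilateral ureteral obstruction) group the left ureter had been tied 2 weeks before, and the sham group had surgery without ligation. The 2 experiments differ in agent, time and controls, and changes are therefore given within each table and set side by side.

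The proximal tubule takes back most of the filtered glucose, amino acids, phosphate and organic acids, and its last straight part is rich in enzymes and transporters that detoxify and secrete foreign and endogenous compounds. In rodents many of these genes differ between males and females and respond to androgen, Kap being the classical example. Injured tubule cells lose such differentiated functions and switch on injury genes. Whole-kidney FPKM does not place a gene in a segment, and a fall in it cannot tell fewer cells of a type from less RNA per cell.

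The working description of these genes as proximal tubule enzymes held for only some of them. Akr1c12l1 (an aldo-keto reductase), Dhrs7l1 (a short-chain dehydrogenase), Rgn (regucalcin, the gluconolactonase of ascorbate synthesis), Nat8f1 (a member of the N-acetyltransferase 8 family) and Gucy1b2 (the beta-2 subunit of soluble guanylate cyclase) encode enzymes or enzyme subunits. Kap (kidney androgen regulated protein), Cacng5 (an auxiliary subunit of calcium channels and AMPA receptors) and Ppp1r1a (inhibitor 1 of protein phosphatase 1) do not. LOC361914 is a provisional rat locus described in gene databases as similar to the amino acid transporter Slc7a12, so reads could have been shared between the 2 genes and its level is uncertain.

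The promoters of Kap and Akr1c12l1 are shown because they were the only ones among these genes with the letters GTTAAT, a half-site of the tubular transcription factor HNF1. RefSeq promoters (GRCr8) were matched for 7 of the 9 genes, LOC361914 and Ppp1r1a being left without one. Each sequence holds the 250 bases before the annotated start, 5′ to 3′, with matches to the searched motifs in capitals.
Kap, chr4:168409033-168409282, minus strand: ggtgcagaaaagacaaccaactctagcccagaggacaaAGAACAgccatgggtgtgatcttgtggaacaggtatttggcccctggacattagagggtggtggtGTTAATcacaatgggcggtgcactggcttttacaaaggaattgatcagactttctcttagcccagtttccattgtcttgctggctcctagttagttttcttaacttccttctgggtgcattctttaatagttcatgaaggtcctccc
Akr1c12l1, chr17:70847504-70847753, plus strand: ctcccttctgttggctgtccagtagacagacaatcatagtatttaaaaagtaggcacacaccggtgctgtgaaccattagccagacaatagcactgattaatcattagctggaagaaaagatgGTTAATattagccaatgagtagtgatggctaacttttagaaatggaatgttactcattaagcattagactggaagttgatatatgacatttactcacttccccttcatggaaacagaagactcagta

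GTTAAT began 147 bases before the start of Kap and 127 bases before that of Akr1c12l1. Both strands were searched, and 6.45% of 33469 rat promoters of this length held these letters. AGAACA, a half-site of the androgen receptor, was found in 3 of the 7 promoters, those of Kap (212 bases before the start), Dhrs7l1 and Cacng5, against 17.5% of all promoters. CAAAGTC, a core of HNF4 sites, was in none of the 7 (3.95% of all promoters), and TATAAA was in that of Nat8f1 alone, on the opposite strand (12.9% of all promoters). A letter match in such a window is a description and does not show binding.

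Kap stood apart by its level. Its FPKM was 7696, 12706 and 8063 in control rats 1 to 3, and 0.587, 72.4 and 2.17 in adenine rats 1 to 3. In the other experiment it was 8562, 10198 and 9021 in sham rats and 48.3, 133 and 80.2 in UUO rats. The highest diseased kidney was thus far below the lowest undiseased one in both models, and the 3 adenine rats differed among themselves by 123-fold. By mean FPKM Kap ranked 8 in control and 8 in sham, 2836 in adenine and 942 in UUO. It held 1.33% to 2.18% of the summed FPKM in control rats and 1.38% to 1.64% in sham rats, but 0.00012% to 0.0152% in adenine rats and 0.00896% to 0.0249% in UUO rats. The log2 fold change was −10.90 ± 1.57 (SE, n = 3 per group) in adenine and −6.85 ± 0.34 in UUO. On the scale of means, 0.264% of the control level and 0.942% of the sham level remained, the former resting on adenine rat 2, without which it was 0.0146%.

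Akr1c12l1, whose family reduces carbonyl groups of steroids, prostaglandins and aldehydes, had FPKM of 613, 829 and 704 in control and 0.569, 4.32 and 1.98 in adenine rats. In sham rats it was at 689, 650 and 590, and in UUO rats at 3.22, 3.89 and 4.17. The rats of each undiseased group and of the UUO group differed by at most 1.35-fold, and those of the adenine group by 7.59-fold, adenine rat 1 being the lowest. On the log2 scale it changed by −8.60 ± 0.62 in adenine and −7.39 ± 0.12 in UUO.

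Dhrs7l1 was at 376, 567 and 405 in control and at 0.559, 3.07 and 1.41 in adenine rats. Sham values were 514, 510 and 508, and UUO values 2.88, 1.33 and 2.43. The sham rats differed by only 1.01-fold, and the SD of their log2 values was lower than that of all but 0.40% of tested genes. This gave a log2 fold change of −8.23 ± 0.53 in adenine and −7.85 ± 0.26 in UUO.

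Rgn had the same tight sham group, at 435, 433 and 428, against 3.54, 4.09 and 3.44 in UUO rats. In the adenine table it was at 452, 711 and 460 in control and at 1.21, 2.88 and 2.67 in adenine rats. Its log2 fold change was −7.90 ± 0.35 in adenine and −6.84 ± 0.09 in UUO. The levels remaining were 0.417% in adenine and 0.855% in UUO.

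Nat8f1, whose family includes the enzyme that completes mercapturic acids from cysteine conjugates, was at 199.7, 340 and 208 in control and 0.686, 3.65 and 1.28 in adenine rats. It was at 139, 172 and 160 in sham and at 1.19, 2.08 and 1.60 in UUO rats. Rat 2 was the highest in each of the 4 groups, although equal numbers do not mark a shared animal. Fitted log2 fold changes were −7.24 ± 0.55 in adenine and −6.53 ± 0.20 in UUO.

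Gucy1b2 was expressed at a more modest level, 32.5, 50.8 and 22.2 in control and 19.8, 34.6 and 34.7 in sham. It was at 0.0488, 0.194 and 0.187 in adenine and at 0.141, 0.108 and 0.131 in UUO rats. In no diseased kidney did it reach 0.2 FPKM. Its log2 fold change was −7.16 ± 0.39 in adenine and −6.99 ± 0.26 in UUO, on a scale where the pseudocount of 0.1 is close to the diseased values and understates the change.

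Cacng5 was listed at 0 in adenine rats 1 and 3 and at 0.0907 in adenine rat 2, against 32.3, 29.3 and 62.0 in control. In the UUO table it was at 116, 60.7 and 41.5 in sham and at 0.195, 0.152 and 0.161 in UUO. The number of reads is unknown, so a listed 0 sets no detection limit. Its log2 fold change was −8.30 ± 0.39 in adenine and −7.95 ± 0.36 in UUO.

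LOC361914 was the most variable of the 9 genes in undiseased kidneys. It was at 22.4, 115 and 137 in control and at 208, 28.9 and 26.1 in sham rats, a spread of 6.13-fold and 7.96-fold. In diseased kidneys it was at 0.0257, 0 and 0.0905 (adenine) and at 0.159, 0.0974 and 0.0277 (UUO). No diseased value came near the lowest undiseased one, and 0.0423% and 0.108% of the mean levels remained. Its log2 fold change was −9.05 ± 0.69 in adenine and −8.18 ± 0.80 in UUO, and among tested entries it ranked 5 and 1 by size of fall.

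Ppp1r1a differed from the other 8 genes in the adenine model. It was at 136, 195 and 164 in control and still at 37.4, 14.6 and 11.1 in adenine rats, whereas sham values of 223, 236 and 167 stood against UUO values of 4.27, 4.07 and 4.22. The groups did not overlap in either model, but 12.7% of the control level remained in adenine and 2.01% of the sham level in UUO. Its log2 fold change was −3.16 ± 0.43 in adenine (rank 343 of the falls) and −5.59 ± 0.14 in UUO (rank 43). The difference was not tested, because the genes were picked on these same contrasts.

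**Figure D1:**
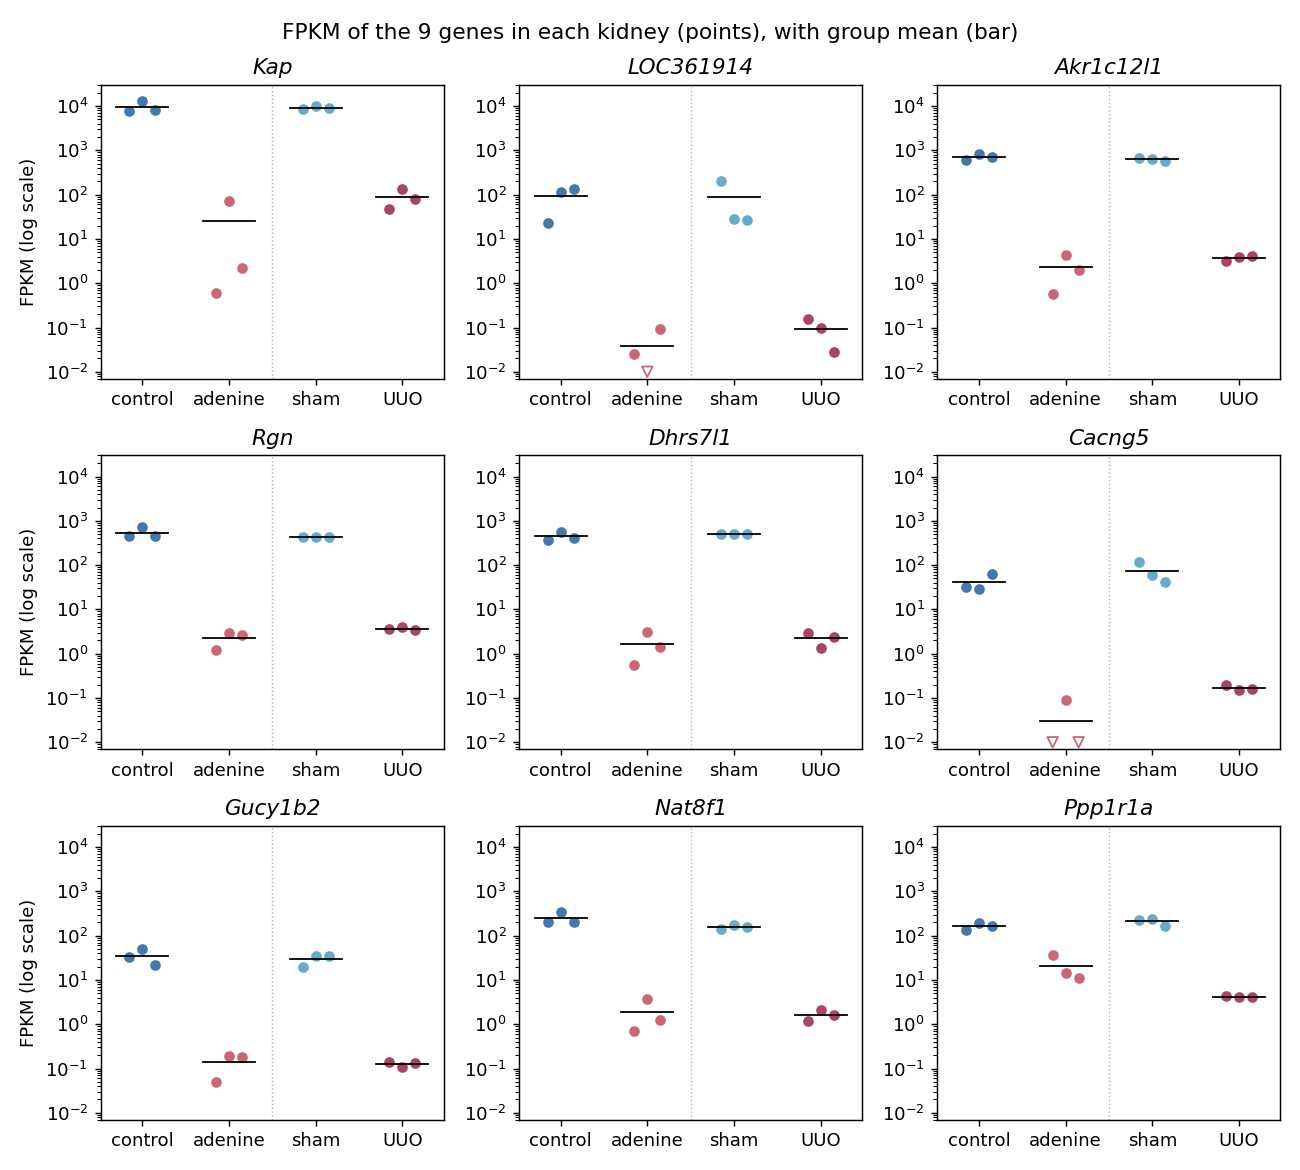
FPKM on a log axis of the 9 genes in each kidney, 3 rats per group, with a bar at the group mean; open triangles at the lower edge mark values listed at 0. In every panel all diseased kidneys lie below all undiseased kidneys of the same table, and Ppp1r1a in adenine rats, between 11.1 and 37.4, is the smallest fall.

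All 9 genes were past the thresholds used for a differentially expressed gene (adjusted p under 0.05 by limma with Benjamini-Hochberg adjustment, absolute log2 fold change of at least 2) and lower in both models, where 15.7% of tested entries were called in adenine and 17.4% in UUO, and 5.03% and 4.21% of tested entries were called lower. All 9 were also without overlap between groups, which held in the lower direction for 23% and 15.7% of tested entries. These counts follow from how the genes were picked. The median log2 fold change of the 9 was −8.23 in adenine and −6.99 in UUO, against 0.30 and 0.62 over all tested entries. That shift of all entries is present in FPKM as deposited, and it was 0.0056 and 0.023 after median-of-ratios scaling. The median share of the undiseased mean that remained was 0.374% in adenine and 0.585% in UUO. Without adenine rat 2 the share in adenine was 0.178% for Akr1c12l1, 0.220% for Dhrs7l1 and 0.394% for Nat8f1, and 0 for Cacng5, in place of 0.320%, 0.374%, 0.750% and 0.0733%. Without adenine rat 1 it was 7.78% for Ppp1r1a. That of LOC361914 was 0.0140% without adenine rat 3, and in UUO 0.344% without sham rat 1 and 0.0713% without UUO rat 1.

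Kidneys of the same group were compared next, since the order of rats within a group had no part in the choice of the genes. Adenine rat 2 had the highest value for 7 of the 9 genes, LOC361914 and Ppp1r1a being the exceptions, against 36.4% of all tested genes. Adenine rat 1 had the lowest value for 6 of the 9, against 43.5% of all tested genes, and shared the lowest value of Cacng5. LOC361914, Cacng5 and Gucy1b2 were below the minimum FPKM in every diseased kidney, where their order carries little information. Of the other 6 genes, Kap, Akr1c12l1, Rgn, Dhrs7l1 and Nat8f1 were lowest in rat 1 and highest in rat 2, with the widest steps in Kap, and Ppp1r1a was not. Proximal tubule markers took the same order, adenine rat 1 being lowest for 16 of 16 and rat 2 highest for 14 of 16. Lrp2 (megalin) was at 6.61, 35.6 and 18.4 and Slc34a1 (the phosphate transporter NaPi-IIa) at 12.4, 100.5 and 32.9 in adenine rats 1 to 3. Summed leukocyte markers went the other way, at 12912, 6279 and 9558 FPKM, and their part in this order was not tested.

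Ppp1r1a ran against this order, being highest in adenine rat 1. The thick ascending limb gene Umod (uromodulin) was likewise highest in that rat, at 215, 131 and 82.7. So were the summed collecting duct markers (199.7, 124.8 and 124.5 FPKM) and the summed leukocyte markers. A highest value in adenine rat 1 was therefore not particular to the thick ascending limb. In UUO rats Ppp1r1a hardly varied (4.27, 4.07 and 4.22, SD of log2 values below that of all but 4.23% of tested genes) while Umod was at 89.9, 61.3 and 163. Over the 6 diseased kidneys, with each value taken from its group mean, the correlation between Ppp1r1a and Umod was r = 0.684, but over the 6 undiseased kidneys it was r = 0.037. For Kap and Nat8f1 it was r = 0.988 and r = 0.990. Each set of 6 points from 2 tables, in which genes also share the scaling of their library, allows no more than a description.

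Among UUO rats, proximal tubule markers were highest in rat 2 for 15 of 16, against 28.2% of all tested genes. Of the 6 genes above the minimum FPKM in every diseased kidney, Kap, Rgn and Nat8f1 were highest in that rat, Dhrs7l1 and Ppp1r1a in rat 1 and Akr1c12l1 in rat 3. Rat 1 was lowest for Kap, Akr1c12l1 and Nat8f1 and rat 2 for Dhrs7l1 and Ppp1r1a, so the 6 genes were divided.

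**Figure D2:**
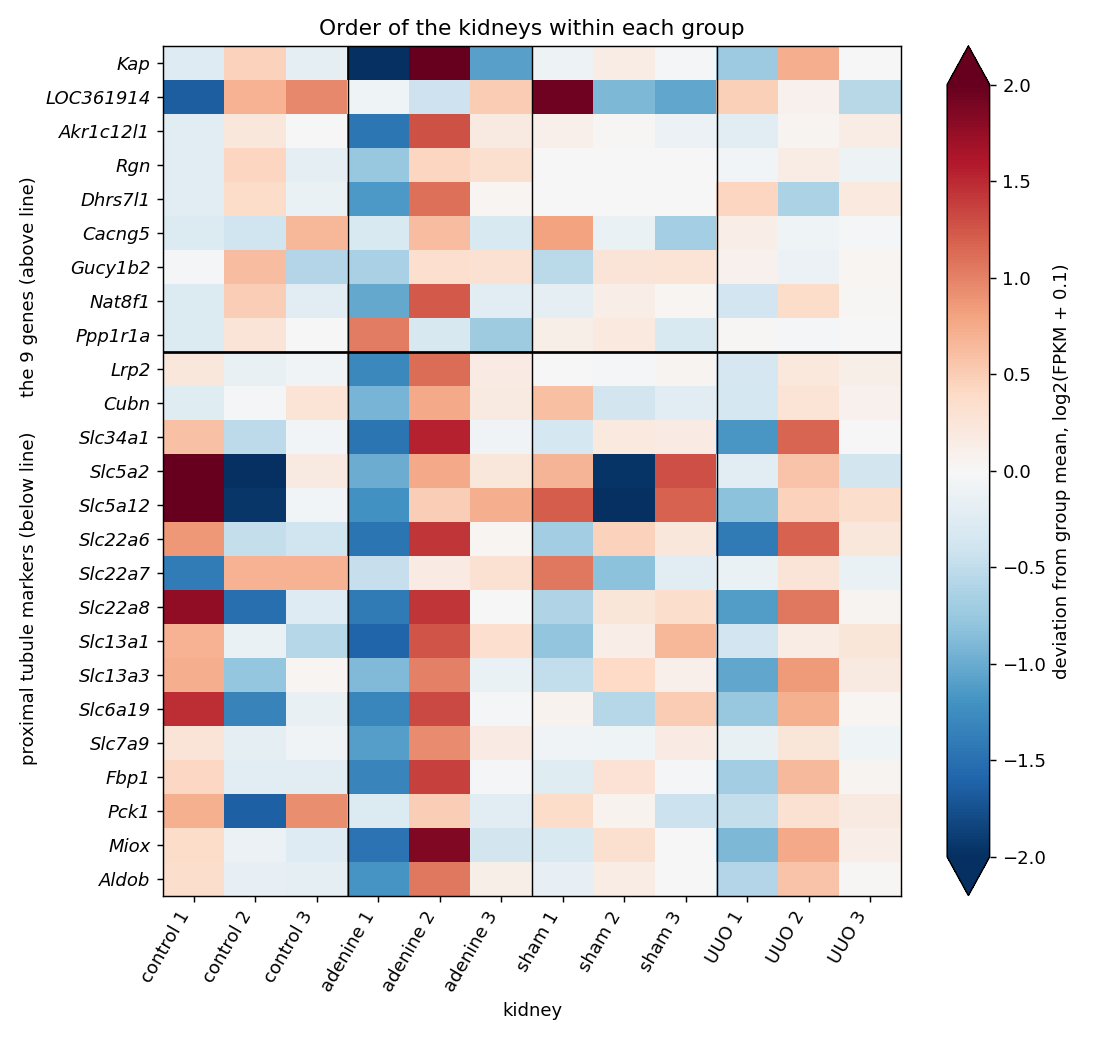
Deviation of log2(FPKM + 0.1) from the group mean (color scale, clipped at −2 and 2) in each of the 12 kidneys for the 9 genes above the line and the 16 proximal tubule markers below it. In the adenine columns most rows are low in rat 1 and high in rat 2, and Ppp1r1a is the reverse.

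The 9 genes were also set beside the proximal tubule markers as a whole. Of the 16 markers, 7 fell and 1 rose in adenine, and 10 fell and 0 rose in UUO, by the limma fit (8 and 1, and 11 and 0, at an unadjusted p under 0.05). The added falls were Slc13a3 in adenine (−1.99, adjusted p = 0.018) and Slc6a19 in UUO (−1.50, adjusted p = 0.016). Both passed the adjusted p and missed only the fold threshold. Lrp2 fell, at a log2 fold change of −2.75 in adenine (adjusted p = 0.0052) and −2.09 in UUO (adjusted p = 4.7e-05), the latter short of the fold threshold without UUO rat 1 (−1.92) and with FPKM rescaled to the same sum (−1.86). Miox, an inositol oxygenase of this segment, fell, at a log2 fold change of −6.18 (adjusted p = 0.00068) and −4.89 (adjusted p = 8.3e-05). The median share remaining was 35.2% of the undiseased mean in adenine and 11.3% in UUO, above the highest shares among the 9 genes (12.7% and 2.01%). That gap follows from how the 9 genes were picked and is given as a description. Cubn (cubilin), partner of Lrp2 in protein uptake, stayed at 87.2% and 69.5% of the undiseased mean and was not called.

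Other markers ran from a rise to near loss. Slc34a1 of the convoluted part fell, at log2 fold changes of −4.31 in adenine (adjusted p = 0.0024) and −3.86 in UUO (adjusted p = 0.00072), as did the organic anion transporter Slc22a6, at −3.88 (adjusted p = 0.0040) and −4.54 (adjusted p = 0.00082). Slc5a12 (a lactate transporter of the early segment) was called higher in adenine (adjusted p = 0.013), with 3.22, 10.7 and 12.5 FPKM against 1.81, 0.0254 and 0.362 in control, but it was at 10.2, 0.743 and 9.96 in sham and at 2.35, 5.85 and 5.42 in UUO (adjusted p = 0.97). Slc7a9 (log2 fold change −0.45, adjusted p = 0.44) and Slc6a19 (0.01, adjusted p = 0.99), both amino acid transporters, were not called in adenine. Slc22a7, an organic anion transporter of the late segment in rats, fell, at a log2 fold change of −4.97 in adenine (adjusted p = 0.00065) and −4.92 in UUO (adjusted p = 0.00019), with 0.806% and 0.281% remaining, within the range of the 9 genes.

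Leukocyte, fibroblast and injury markers were far higher in both models, while summed markers of the thick ascending limb and collecting duct were lower. By limma, 1 of 4 thick ascending limb markers was called lower in adenine and 3 of 4 in UUO. Of 8 collecting duct markers, 3 were called lower in each model. Umod held most of the thick ascending limb sum in control rat 1 (1521 of 1741 FPKM). Summed leukocyte markers went from 153 to 221 FPKM in control to between 6279 and 12912 in adenine, and from between 179 and 300 in sham to between 1319 and 1986 in UUO. Injury markers (Havcr1, Lcn2, Spp1) summed to between 10057 and 10910 in adenine and between 7780 and 10869 in UUO. Fibroblast markers summed to between 56.0 and 94.6 in control, 496 and 693 in adenine, 48.7 and 60.7 in sham, and 895 and 2065 in UUO. Those of the thick ascending limb summed to 1509 to 1830 in control, 161 to 362 in adenine, 2185 to 2834 in sham and 111 to 263 in UUO. Proximal tubule markers summed to 3741 to 6769 in control, 573 to 1799 in adenine, 6445 to 8003 in sham and 459.5 to 1041 in UUO. The part of these shifts in the falls of the 9 genes was not tested.

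Control rat 2 stood apart from the other control rats. Its summed injury markers were at 560 FPKM against 52.5 and 59.4, its podocyte markers at 30.5 against 140 and 193, and its distal convoluted tubule markers at 14.4 against 201 and 168. It nevertheless had the highest value of 7 of the 9 genes, against 34.6% of all tested genes. It was lowest for 10 of 16 proximal tubule markers, against 37.4% of all tested genes. Without it the share of the control level that remained in adenine was 0.318% for Kap, 0.494% for Rgn, 0.524% for Gucy1b2 and 0.917% for Nat8f1, compared with 0.264%, 0.417%, 0.407% and 0.750% with it.

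LOC361914 varied among undiseased kidneys together with Slc7a13 and Slc22a7, which are known from the late segment. Slc7a13 was at 963, 1997 and 1596 in control and at 1922, 956 and 1253 in sham. Slc22a7 was at 1.53, 6.92 and 6.92, and at 6.80, 1.78 and 2.73. All 3 genes were low in control rat 1 and high in sham rat 1, and Slc34a1 was high in control rat 1 (1034, against 478 and 659) and lowest in sham rat 1 (566, against 823 and 808). With each value taken from its group mean, the correlation of LOC361914 over the 6 undiseased kidneys was r = 0.949 with Slc22a7, r = 0.909 with Slc7a13, r = 0.701 with Slc7a12 and r = −0.858 with Slc34a1. Cacng5 was also highest in sham rat 1 (r = 0.756 with LOC361914) and ran against Gucy1b2 (r = −0.890). The pattern was not particular to LOC361914. Akr1c12l1 was at r = 0.778 with Slc7a13, 0.745 with Slc22a7 and −0.939 with Slc34a1. Gucy1b2 went the other way, at r = −0.191 with Slc7a13 and −0.333 with Slc22a7. These are descriptions over 6 kidneys of 2 tables.

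**Figure D3:**
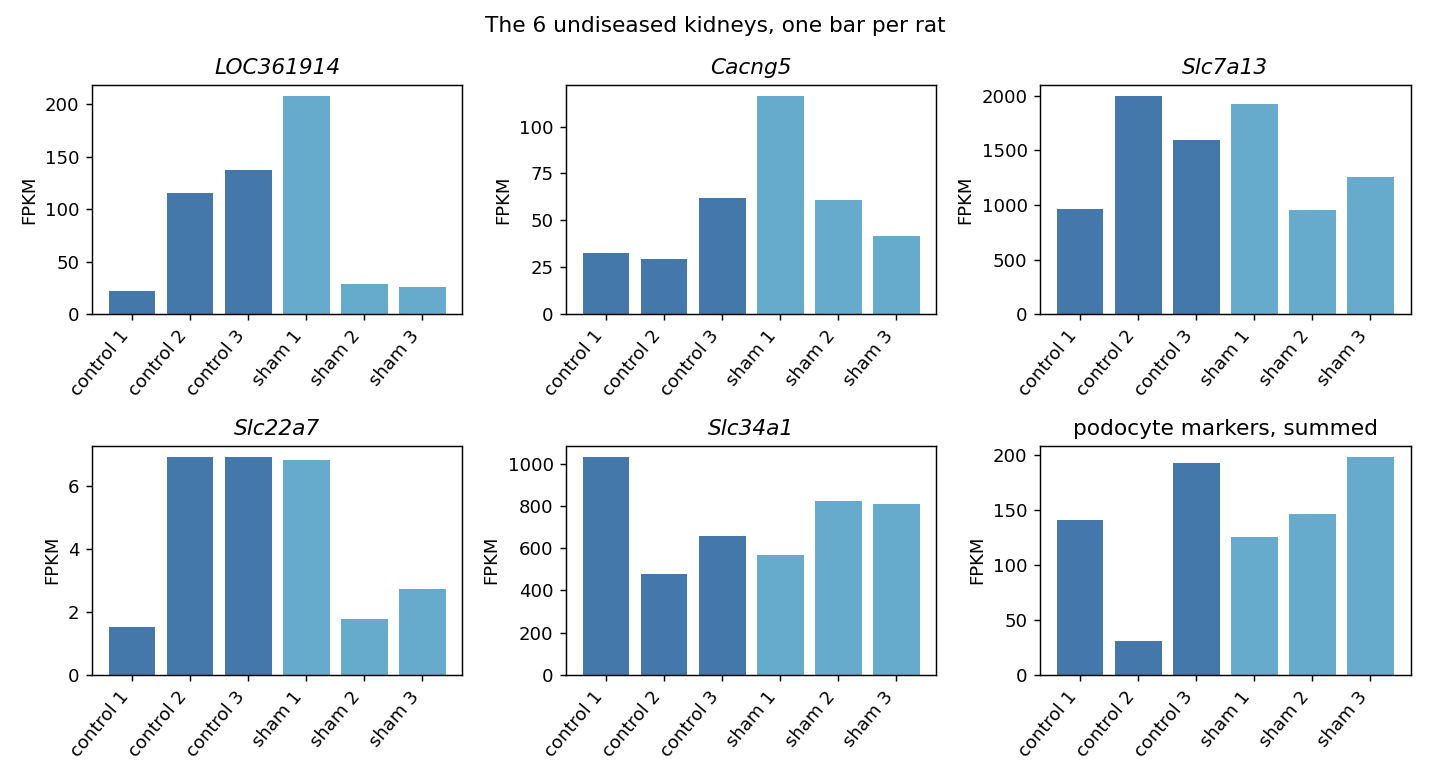
FPKM of LOC361914, Cacng5, Slc7a13, Slc22a7, Slc34a1 and of the summed podocyte markers in the 3 control and 3 sham kidneys, one bar per rat. LOC361914, Slc7a13 and Slc22a7 share a low bar in control rat 1 and a high bar in sham rat 1, and the podocyte bar of control rat 2 is at 30.5.

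Relatives and pathway partners, which were not picked for their change one by one, were tested in the fits of the whole tables. The lists were chosen with earlier results of these data known, so their counts are not independent of the choice of the 9 genes. Over 10 lists without the 9 genes, 24 of 102 tested genes fell and 15 rose in adenine, and 23 of 100 fell and 8 rose in UUO, where 5.03% and 4.21% of all entries were called lower and 10.7% and 13.2% higher. The UUO split depended on scaling, with 30 lower and 3 higher after median-of-ratios scaling and 28 lower and 2 higher after quantile normalization. In adenine these were 27 and 12, and 27 and 9. Without control rat 2 the lists held 40 calls in adenine in place of 39. In all 6 fits that left out 1 rat, 33 of the 39 adenine calls and 29 of the 31 UUO calls were kept.

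Among aldo-keto reductases, 4 of 13 fell and 2 rose in adenine, and 5 of 11 fell and 1 rose in UUO, with list medians of −0.67 and −1.44. Akr7a3, an aflatoxin aldehyde reductase and the most abundant of the list, fell, at a log2 fold change of −5.38 in adenine (adjusted p = 6.6e-05) and −5.05 in UUO (adjusted p = 3.5e-05), from 1039, 1527 and 1118 FPKM in control to 17.2, 46.4 and 30.6. Akr1c13 fell, at a log2 fold change of −3.22 (adjusted p = 0.00014) and −3.70 (adjusted p = 2.7e-05). Akr1c1 fell, at a log2 fold change of −3.71 in UUO (adjusted p = 0.00046) and was not called in adenine (log2 fold change −1.97, adjusted p = 0.11), where control rat 2 was at 4.35 FPKM against 46.6 and 32.5. Without control rat 2 it was called in adenine too, at −3.01. Akr1c12 fell, at a log2 fold change of −3.21 in UUO (adjusted p = 0.00091), a call lost with a pseudocount of 1, against −0.62 in adenine (adjusted p = 0.40). The Akr1c genes, like those of the Nat8 family, are close paralogs, and how shared reads were divided among them is not given in the sources used here, so their single values are uncertain. No tested relative had a log2 fold change as low as that of Akr1c12l1, which was picked for it.

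Of the short-chain dehydrogenases, 4 of 29 fell and 1 rose in adenine, and 4 of 31 fell and 1 rose in UUO, with list medians of −0.64 and −0.25. Rdh16 (a retinol dehydrogenase) fell, at a log2 fold change of −4.49 in UUO (adjusted p = 3.4e-05). It was not among the list genes assessed in the adenine model. Rdh5 fell, at a log2 fold change of −3.44 in adenine (adjusted p = 0.0020) and −3.99 in UUO (adjusted p = 0.00013). Hsd17b14, a hydroxysteroid dehydrogenase, fell, at a log2 fold change of −3.53 (adjusted p = 0.00018) and −3.34 (adjusted p = 0.00016), the latter lost with a pseudocount of 1. Hsd17b10, a mitochondrial enzyme and the most abundant of the list, was at −1.64 and −1.58 and did not reach the fold threshold. Dhrs9, known from macrophages and epithelia, rose by 5.69 in adenine (adjusted p = 2.5e-05), where it was at 5.86, 5.28 and 4.78 FPKM against 0, 0.0132 and 0 in control. Dhrs7, named here after its values were seen because of its shared name, was at a log2 fold change of 1.40 and 1.74, the opposite direction to Dhrs7l1, and was short of the fold threshold.

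The Slc7 list, amino acid transporters with partner Slc3a1, moved in both directions, 3 of 14 falling and 4 rising in adenine and 3 of 14 falling and 3 rising in UUO, with list medians of 0.72 and 0.41. Slc7a13, a cystine, aspartate and glutamate transporter of the straight proximal tubule, fell, at a log2 fold change of −9.75 in adenine (adjusted p = 2.6e-05) and −8.18 in UUO (adjusted p = 6.5e-06), to between 0.785 and 2.24 FPKM and between 3.52 and 5.04 FPKM. Slc7a12 fell, at a log2 fold change of −8.66 (adjusted p = 9.8e-05) and −6.53 (adjusted p = 1.3e-05). Slc3a1, the subunit that carries cystine transporters to the brush border and the most abundant of the list, fell, at a log2 fold change of −5.01 (adjusted p = 0.00014) and −4.18 (adjusted p = 1.9e-05).
In the other direction, Slc7a11, the cystine-glutamate exchanger that feeds glutathione synthesis, rose by 6.35 in adenine (adjusted p = 4.7e-05), to 12.4, 5.35 and 11.4 FPKM. In UUO it rose by 2.51 (adjusted p = 0.00086), to 0.608, 0.511 and 0.544, a call lost with a pseudocount of 1. Slc7a2, an arginine transporter, rose by 5.59 in adenine (adjusted p = 0.00017) and by 2.03 in UUO (adjusted p = 0.0021), the latter lost with a pseudocount of 1 or after median-of-ratios scaling.

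In the Nat8 family and mercapturate list 8 of 14 genes fell and 1 rose in adenine, and 7 of 12 fell and 0 rose in UUO by limma. In UUO 3 genes were higher at an adjusted p under 0.05 but short of the fold threshold. The median log2 fold change of the list was −2.75 and −2.67. Nat8b fell, at a log2 fold change of −5.11 (adjusted p = 1.9e-05) and −5.53 (adjusted p = 2.4e-06), from 94.2, 145 and 106 in control to 3.13, 3.46 and 2.98 in adenine. Nat8f3 fell, at a log2 fold change of −4.32 (adjusted p = 0.00084) and −3.54 (adjusted p = 0.0011). The aminoacylases, which take the acetyl group off again, moved the same way, Acy3 by −3.15 (adjusted p = 0.0011) and −4.30 (adjusted p = 1.2e-05) and Acy1 by −3.91 (adjusted p = 0.00027) and −3.55 (adjusted p = 6.4e-05).

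The guanylate cyclase list moved opposite to Gucy1b2. Of 5 tested genes, 0 fell by limma in both models (0 at an unadjusted p under 0.05), while 2 rose in adenine and 3 in UUO, with list medians of 1.56 and 2.23. Gucy1a1 and Gucy1b1, the subunits of the common nitric oxide receptor, rose by 2.52 (adjusted p = 0.00030) and 2.17 (adjusted p = 0.0015) in adenine and by 3.27 (adjusted p = 6.5e-05) and 3.18 (adjusted p = 9.8e-06) in UUO. Gucy1b1 went from 2.53, 2.44 and 2.89 FPKM in sham to 24.1, 22.9 and 26.3 in UUO. Its adenine call was lost with a pseudocount of 1, after median-of-ratios scaling or quantile normalization, and without adenine rat 2. Npr2, a natriuretic peptide receptor, rose by 2.23 in UUO (adjusted p = 4.0e-05), a call lost with a pseudocount of 1 or after either scaling, and Npr1, the most abundant of the list in control, was at 0.77 and 1.46 without a call.

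Few partners of Cacng5 and Ppp1r1a were called. Cacng4 was the single other calcium channel gamma subunit above the filter, at a log2 fold change of 2.36 in adenine (adjusted p = 0.0031, lost with a pseudocount of 1 and after quantile normalization) and 0.71 in UUO (adjusted p = 0.18). Of 11 protein phosphatase 1 genes, 0 fell by limma. At an unadjusted p under 0.05, 3 were lower in adenine and 0 in UUO, and 2 of the 3 also passed the adjusted p. Medians of the 11 genes were 0.02 and 0.68. Ppp1r3c, a glycogen-targeting subunit, was the only one of them to be called, rising by 2.45 in adenine (adjusted p = 0.00075, lost with a pseudocount of 1 and after quantile normalization). The catalytic subunit Ppp1ca, target of Ppp1r1a and the most abundant of the list, was at 0.03 (adjusted p = 0.83) and 0.30 (adjusted p = 0.017).

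Beside Rgn, 1 of 5 genes of ascorbate synthesis and transport fell in both models. It was Slc23a1, the epithelial ascorbate transporter, at a log2 fold change of −4.36 in adenine (adjusted p = 5.5e-05) and −4.24 in UUO (adjusted p = 4.4e-05). Slc23a2, the transporter of other cells, rose by 2.08 in adenine (adjusted p = 0.00047), a call lost with a pseudocount of 1, after median-of-ratios scaling or quantile normalization, without control rat 2 and without adenine rat 1. Akr1a1, the most abundant of the list, was at −0.67 and −0.84.

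Of 6 genes of androgen action and androgen-regulated kidney genes, 2 fell in both models and 2 rose in adenine. Slco1a1, an organic anion transporter with male-biased kidney expression, fell, at a log2 fold change of −9.16 in adenine (adjusted p = 2.6e-05) and −7.28 in UUO (adjusted p = 9.8e-06), from 97.2, 117 and 114 FPKM in control to 0, 0.12 and 0.214. Odc1, ornithine decarboxylase, fell, at a log2 fold change of −3.01 (adjusted p = 6.4e-05) and −2.58 (adjusted p = 5.5e-06). Gusb and Srd5a3 rose by 2.56 (adjusted p = 2.6e-05) and 2.31 (adjusted p = 0.00026) in adenine, the latter lost after quantile normalization, and were at 1.59 and 1.84 in UUO. Called genes of the list thus moved in both directions in adenine and only lower in UUO. The androgen receptor gene itself was below the filter on low values in both tables. The part of androgen in the fall of Kap was not tested.

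Among 5 transcription factors of the proximal tubule, 2 fell in adenine and 1 in UUO. Hnf4g fell, at a log2 fold change of −2.90 (adjusted p = 0.0043, lost with a pseudocount of 1) and −2.92 (adjusted p = 0.00018). Hnf4a, the most abundant of them, fell, at a log2 fold change of −2.42 in adenine (adjusted p = 0.0050), with 9.93, 40.5 and 28.8 FPKM in adenine rats 1 to 3, a call lost without adenine rat 1. In UUO it was at −1.93 (adjusted p = 0.00030), short of the fold threshold, which it passed after either scaling and without UUO rat 2.

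**Figure D4:**
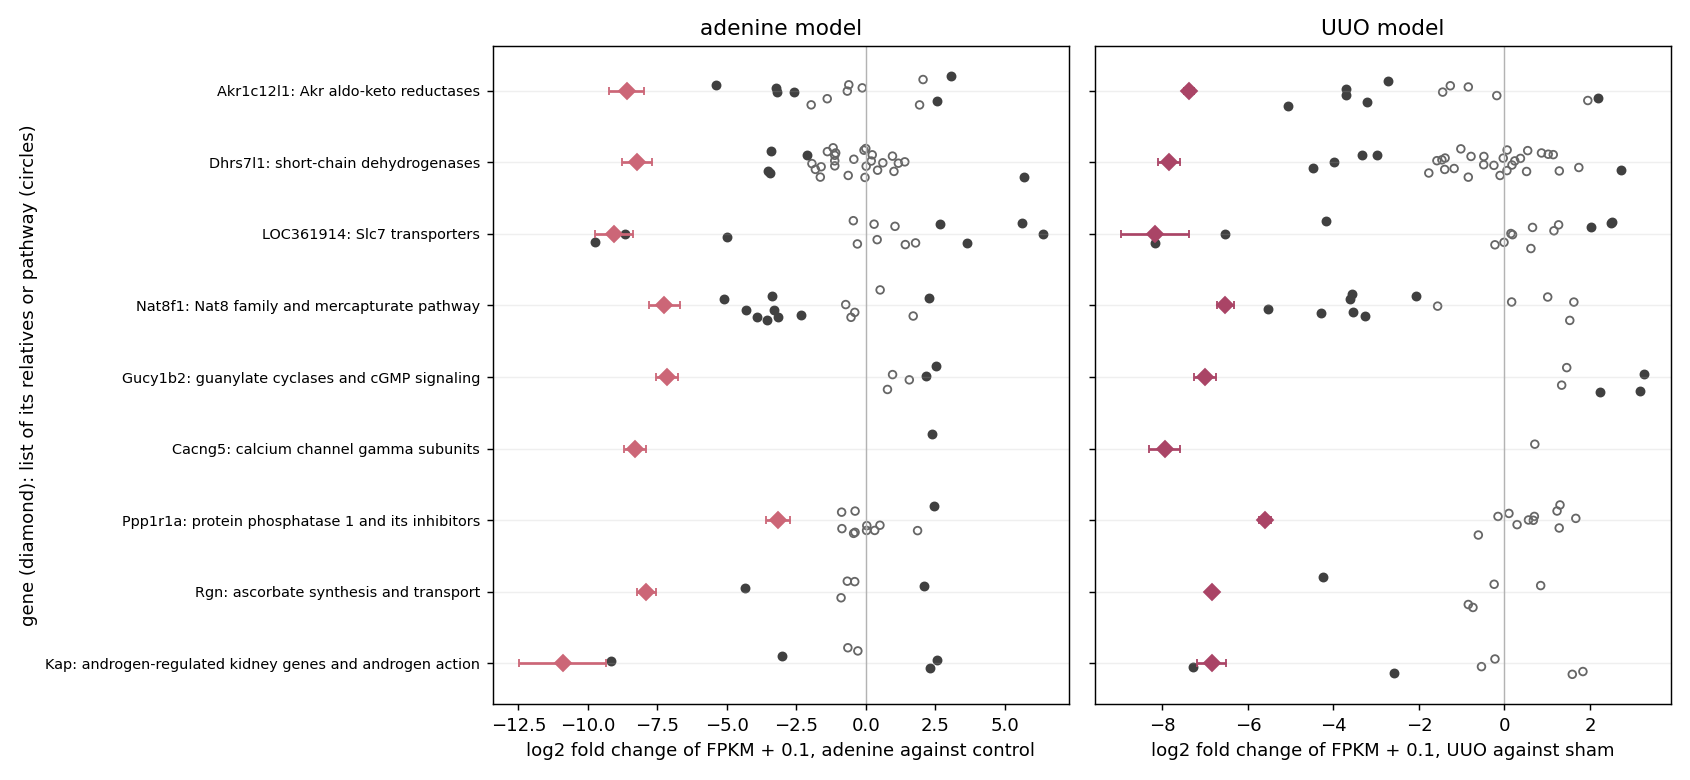
Log2 fold changes of log2(FPKM + 0.1) in the adenine model (left) and the UUO model (right), with diamonds and standard error bars (3 rats per group) for the 9 genes and circles for the tested genes of the list beside each, filled where past both thresholds. Each diamond lies at the far left of its row except LOC361914 in adenine, which Slc7a13 passes at −9.75, and Kap in UUO, which Slco1a1 passes at −7.28. In UUO LOC361914 and Slc7a13 are level at −8.18. The far left places follow from how the 9 genes were picked.

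The test of the difference between the models was applied to 97 genes of the lists, and 5 were called (31 had an unadjusted p under 0.05), where 2.88% of 13486 genes were called in all. Some others, such as Gusb (0.97, adjusted p = 0.0013), passed the adjusted p with a difference under 2. The fold changes of Slc7a11, Slc7a2 and Akr1c12 were higher in adenine than in UUO. Those of Slc7a12 and Dpep1 were higher in UUO. The 5 genes are named because they were called, after their values were seen.

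Genes with the profile most like the mean of the 9 were sought by Pearson correlation over the 12 kidneys among 13477 genes, each value centred within its table. The closest were Tmlhe (r = 0.999), Hagh, Ldhd, LOC103690120 and Slc22a22 (each r = 0.998), a likeness that the contrast of diseased and undiseased kidneys sets. Tmlhe, the first enzyme of carnitine synthesis, was at 5.37% of the control mean in adenine and 7.44% of the sham mean in UUO. Slc22a22 was at 0.672% and 0.828%, above the medians of the 9 genes and within their range. With values taken from the group means, which leaves the order of rats within groups, the closest were Slc6a18 (r = 0.976), Zdhhc9 (0.967), Tpmt (0.961), Slc35d1 (0.954) and Gjb2 (0.950). Slc6a18, an amino acid transporter of the brush border, was at 6.48% of the control mean in adenine. Zdhhc9 stayed at 85.6% of the control mean and 90.9% of the sham mean and was not called. The mean deviation of the 9 genes was widest in adenine rats 1 and 2 (−0.80 and 0.91). In UUO rats it lay between −0.031 and 0.056.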

How the data were processed

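The authors deposited FPKM per gene in 2 tables, one for control and adenine and one for sham and UUO. The submitters' processing notes name cutadapt 1.9, HISAT2 2.0.4, StringTie 1.3.4d, edgeR and DESeq2, and the genome build is not given in the sources used here. The values hold no counts. The most frequent ratio between low values of 2 samples was shared by 0.230% to 3.37% of genes, so depth is unknown, no counting error was calculated, and precision is the spread between 3 rats. The count test that the design of the study would call for was not usable, and limma 3.58.1 (lmFit, eBayes with a trend, R 4.3.3) was fitted to log2(FPKM + 0.1) in each table by itself, for entries that reached an FPKM of 0.5 in 3 or more of the 6 samples. Genes were called at a Benjamini-Hochberg adjusted p under 0.05 over all tested entries and a log2 fold change of 2 or more in either direction. The difference of log2 fold changes between the models over its standard error was referred to a t distribution, adding up the degrees of freedom of both fits. Lists used symbols with 1 entry and left out the 9 genes. In each list up to 4 called genes with the largest change and the gene with the highest control FPKM are named, and the Slc7 list, taken by name, also caught Slc7a6os, which is no transporter. The 9 genes, the lists and the markers were chosen with earlier results of these data known. The fits were tested on simulated data. Python 3.11.15, numpy 2.4.6, pandas 2.3.3 and scipy 1.17.1 were used. Alternatives were other pseudocounts (1 and 0.01), omission of the filter or a stricter one (FPKM 1), 3 scalings, eBayes without a trend, a replicate block, the log2 ratio of mean FPKM, no fold threshold, and leaving out each rat.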

Additional observations from a re-analysis of the deposited data

Results flagged for a closer look

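Genes of the lists whose fold change differed between the models were all found by the test of the difference itself, in which errors of the 2 tables count as independent. The values are log2 fold changes in adenine minus those in UUO. Slc7a11 differed by 3.84 ± 0.52 (SE, adjusted p = 0.00038), rising in both models but by 6.35 in adenine and 2.51 in UUO. Slc7a2 differed by 3.56 ± 0.60 (adjusted p = 0.0015), from 5.59 and 2.03. Akr1c12, a close namesake of Akr1c12l1, differed by 2.60 ± 0.76 (adjusted p = 0.024). It was at 4.53, 0.862 and 2.50 FPKM in adenine rats, which overlapped the control rats, and at 0.462, 0.157 and 0.555 in UUO rats, which did not overlap the sham rats. Slc7a12 differed by −2.13 ± 0.71 (adjusted p = 0.041), being at most 0.369 FPKM in adenine rats and at least 0.635 in UUO rats. Dpep1, the dipeptidase that splits cysteinylglycine conjugates, differed by −2.35 ± 0.61 (adjusted p = 0.013). It was at 1.74, 8.28 and 4.38 FPKM in adenine rats against 10.1, 4.24 and 7.00 in control. In UUO it was at 25.5, 19.5 and 32.6 against 7.91, 7.40 and 9.22 in sham. Neither change was called by itself by limma. In adenine the log2 fold change was −0.73 (adjusted p = 0.31) and the groups overlapped. The rise of 1.63 in UUO passed the adjusted p (0.00040) without overlap and missed only the fold threshold. The models differ in agent, duration and surgery, which cannot be told apart here.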

How the results depend on the processing

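All 9 genes stayed past both thresholds and lower in disease under every alternative fitted. This follows from how the genes were picked and is given as a description. Their median log2 fold change in adenine was −8.23 and became −6.54 with a pseudocount of 1. In UUO it was −6.99, and −5.92 with a pseudocount of 1, −7.42 with 0.01, −7.45 after median-of-ratios scaling, −7.45 (−7.445) after quantile normalization and −7.42 as the log2 ratio of mean FPKM. With a pseudocount of 1, 1320 entries were called in adenine in place of 2360 and 1465 in UUO in place of 2613, and without the fold threshold 8934 and 10606. Without it the lists had 71 calls in adenine in place of 39 and 76 in UUO in place of 31. The difference between the models had 5 calls in the lists, 3 with a pseudocount of 1, after median-of-ratios scaling or after quantile normalization, 8 without a filter, and 3 (without control rat 3 or adenine rat 1) to 10 (without sham rat 1) when 1 rat was left out. Of single list genes, 2929 values kept their direction and side of the threshold, 50 lost a call, 35 gained one and 0 reversed. The causes were not tested. A block for the replicate number gave 2352 calls in adenine and 2609 in UUO over all entries, 39 and 31 in the lists and 4 differences. The numbers mark different rats, and same-numbered rats did not deviate together (correlations of −0.123 to 0.105), so they do not pair the samples. Fold changes of LOC361914, Cacng5 and Gucy1b2 rest on diseased values near the pseudocount, and with unknown depth a value of 0 gives no limit.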
